A study of Mus musculus with 39 samples.

Results

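The 35 genes described here carry out glycolysis, the storage and breakdown of glycogen, and the making and export of lactate. They were chosen by gene symbol for their place in these pathways and not by a measured value, and all 35 were found among the 23412 genes of the files. They comprise 2 glucose transporters, 2 hexokinases, 7 genes of upper glycolysis (from glucose phosphate to the trioses), 6 of lower glycolysis (from the trioses towards pyruvate), 5 of lactate metabolism, 8 of glycogen metabolism and 5 regulators or enzymes of the reverse pathway. Glycolysis splits glucose into pyruvate and yields ATP without oxygen. In fast muscle fibres much of the fuel comes from glycogen, and pyruvate that is not oxidised is reduced to lactate and leaves the fibre through a monocarboxylate transporter. Many steps have a muscle form and a form used by other tissues, so the same pathway is read from different genes in muscle and in the membranes around the brain.

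Messenger RNA was measured in masseter, a jaw-closing muscle, and in dura mater, the tough membrane that lines the skull, of wild-type mice. Masseter came from mice given type I collagenase, which breaks down the collagen of connective tissue, as 4 injections of 0.2 to 0.5 U. The enzyme went into the temporal muscle on the side of the skull, with masseter taken at day 28 (3 libraries, numbered 11 to 13), or into the masseter itself, with the muscle taken at day 52 (3 libraries, 8 to 10) or day 38 (3 libraries, 5 to 7). The reference masseters had received saline in the masseter and were taken at day 38 (4 libraries) or day 28 (4 libraries). In the masseter of the temporal-injected mice the enzyme had been given at another site, so that this muscle is referred to as temporal-injected below. Dura was taken at day 2 from mice that had 10 U of collagenase in the temporal muscle (collagenase dura, 12 libraries), from mice that had saline there instead (temporal saline, 4 libraries) and from mice whose label reads saline with no site (unnamed-site saline, 6 libraries, titled naive). Neither a day 52 saline masseter nor a masseter after saline in the temporal muscle is among the groups. The age of the mice and how many stood behind a library were not given in the sources used here, so p-values measure only the spread between these libraries.

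Each masseter library held 12.06 to 28.12 M (mega) counts and each dura library 18.17 to 32.35 M. From the deposited gene lengths, the day 28 saline masseters and both dura saline groups were read as single-end and all other groups as paired-end, so that the layout cannot be told apart from the treatment wherever a comparison crosses it. Xist, which coats the silent X in females, measured 378 to 493 CPM in the temporal-injected masseters and 283 to 332 CPM in the day 28 saline masseters, against a highest value of 0.455 CPM elsewhere in masseter, where the Y-linked Ddx3y took 70.1 to 158 CPM. The temporal-injected group therefore shared its layout with the day 52, day 38 and day 38 saline masseters, and its Xist level with the day 28 saline masseters. The summed CPM of 8 salivary gland genes reached 73896 in temporal-injected library 11, 128816 in day 38 library 7, 30622 in day 38 saline library 2, and 44012 and 5950 in day 28 saline libraries 1 and 4, against 44.4 to 111 in the other masseter libraries. In bulk tissue, fewer cells of a type and less RNA per cell cannot be told apart. CPM here means counts per M counts on scaled library sizes, which compares libraries, and TPM is the authors' value per transcript length, which compares genes.

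In masseter the pathway was carried by its muscle forms. On the TPM scale the highest members in the day 38 saline muscles were Aldoa, the aldolase of muscle, at 17860 ± 2614 TPM, Gapdh at 9645 ± 1204 TPM, the muscle enolase Eno3 at 5655 ± 1076 TPM, the muscle phosphoglycerate mutase Pgam2 at 4686 ± 588 TPM and Pygm, the glycogen phosphorylase of muscle, at 3381 ± 454 TPM (SD, n = 4). The levels of Eno3 and Pgam2 overlapped within 1 SD of each other. All 35 members together made up 3.39 ± 0.498% of TPM in temporal-injected masseter, 4.55 ± 0.371% at day 52, 4.97 ± 0.775% at day 38, 5.34 ± 0.738% in day 38 saline and 2.84 ± 0.386% in day 28 saline masseter (SD, n = 3, 3, 3, 4 and 4). Leaving Gapdh out, the same sums averaged 2.75%, 3.75%, 4.01%, 4.38% and 2.72% of TPM.

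**Figure D1:**
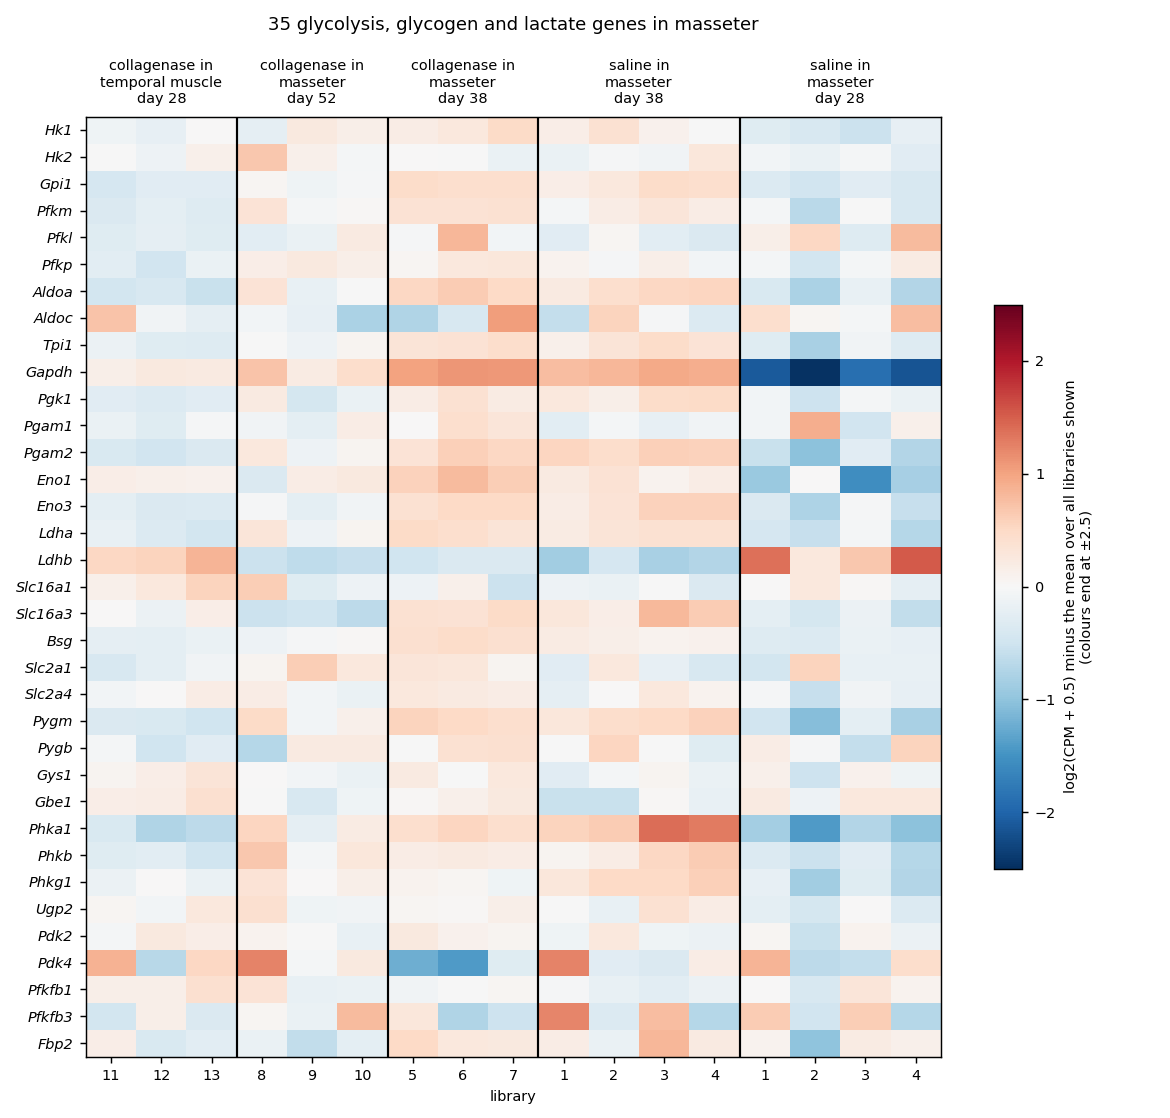
Level of each of the 35 members (down the page) in each of the 17 masseter libraries (across, grouped by treatment and day), as log2(CPM + 0.5) minus the mean of that gene over the libraries; red is above and blue below that mean, and colours end at 2.5. The temporal-injected and day 28 saline blocks are bluer for most enzymes of glycolysis than the day 38 blocks, Ldhb runs the other way, and Gapdh is lowest in the 4 day 28 saline libraries.

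The comparison of day 52 with day 38 after collagenase in the masseter asked how the injected muscle differed between a later and an earlier day, with treatment and layout shared. Both genes called were parts of lactate export. Slc16a3 encodes the monocarboxylate transporter MCT4, through which fast fibres release lactate, and Bsg encodes basigin, the membrane partner that monocarboxylate transporters need to reach the cell surface. Slc16a3 measured 155, 159 and 143 CPM at day 52 against 293, 290 and 311 CPM at day 38. Bsg measured 417, 448 and 464 CPM at day 52 against 606, 628 and 600 CPM at day 38. For both genes every day 52 library lay below every day 38 library. The log2 fold change was -0.97 ± 0.16 for Slc16a3 and -0.47 ± 0.07 for Bsg (SE; edgeR adjusted p = 0.0442 for each).

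These 2 calls were close to the threshold. Leaving out any 1 of the 6 libraries ended both of them, with log2 fold changes between -1.0 and -0.93 for Slc16a3 (adjusted p 0.0692 to 0.156) and between -0.50 and -0.42 for Bsg (adjusted p 0.0539 to 0.134); DESeq2 gave adjusted p-values of 8.80e-06 for Slc16a3 and 6.06e-12 for Bsg. On the log2(TPM + 1) scale with limma, Slc16a3 differed by -0.63 (adjusted p = 0.0729) and Bsg by -0.13 (adjusted p = 0.597). The members' counts were 0 higher and 2 lower of 35, in a comparison that called 0.0751% of 14652 genes higher and 0.0205% lower. The median log2 fold change was -0.287 over the members and 0 over all genes, with 26 members below 0 and 9 above. On the log2(TPM + 1) scale the median of all genes itself moved by 0.26, with 13 members below 0 and 22 above, so the direction of the members as a group depended on the scale.

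Slc16a1, which encodes MCT1, the monocarboxylate transporter of oxidative fibres and many other cells, did not pass the test between the days, with 110, 57.8 and 65.7 CPM at day 52 against 65.1, 78.6 and 49.4 CPM at day 38. In TPM, Slc16a3 took 72.7%, 83.8% and 80.3% of the summed Slc16a1 and Slc16a3 at day 52, against 89.4%, 87.4% and 92.2% at day 38. The lowest share, in day 52 library 8, was the library with the highest Slc16a1. Among the enzymes, Gpi1, which turns glucose phosphate into fructose phosphate, came nearest to the threshold, with 715, 641 and 677 CPM at day 52 against 960, 935 and 925 CPM at day 38 (log2 -0.47 ± 0.09, SE; adjusted p = 0.0503). Gapdh (-0.60, adjusted p = 0.0587), Eno3 (-0.59, adjusted p = 0.0823) and Aldoa (-0.49, adjusted p = 0.134) also had lower means at day 52 without passing. DESeq2 called these 4 lower as well as Slc16a3 and Bsg. Ldha, the lactate dehydrogenase subunit of fast muscle, measured 1943, 1442 and 1660 CPM at day 52 against 2196, 2123 and 1987 CPM at day 38, and Ldhb, the subunit of heart and oxidative tissue, 67.9, 63.7 and 66.5 CPM against 69.9, 76.7 and 77.2 CPM. Neither passed the test, although the days did not overlap for either gene. Pdk4, a kinase that holds back pyruvate oxidation, ran the other way at 1053, 426 and 522 CPM at day 52 against 190, 166 and 358 CPM at day 38 (log2 1.49 ± 0.56, SE; edgeR adjusted p = 0.177). With limma on log2(TPM + 1) Pdk4 was the 1 member called, as higher, where 685 of all genes were called higher and 0 lower. The days did not overlap for 15 of the 35 members, and for 26.9% of all genes. Summed levels of 7 endothelial markers were 549 to 688 CPM at day 52 against 823 to 1005 CPM at day 38, with no marker at 0 throughout a group, and their part in the difference of Bsg, which endothelial cells also express, was not tested.

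**Figure D2:**
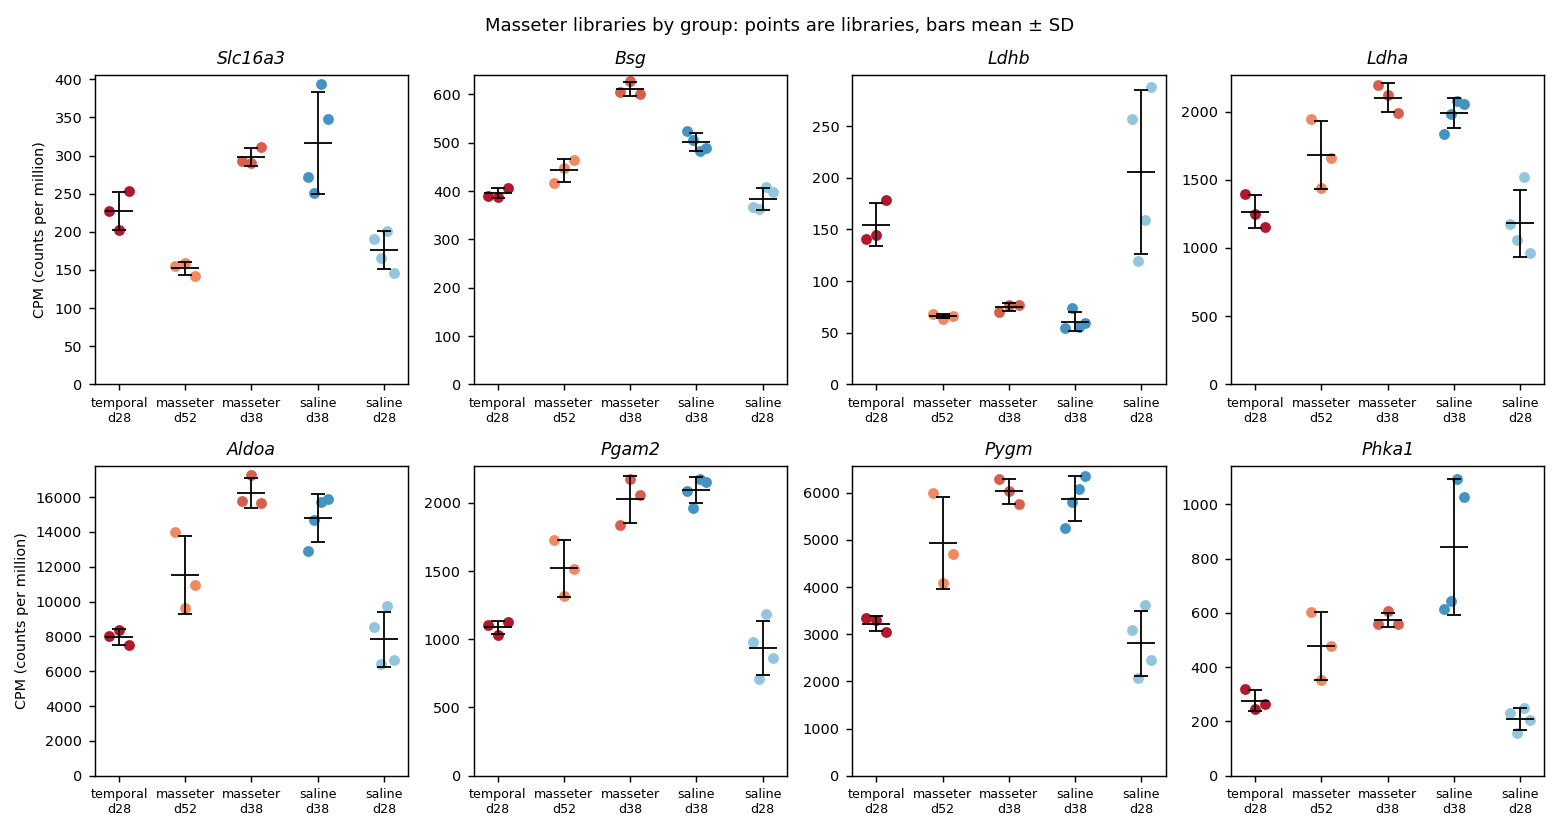
CPM (vertical axes, from 0) of 8 members in each masseter library, by group, with the mean and SD drawn beside the points. Slc16a3 is lowest in the day 52 group, at 143 to 159 CPM, and Ldhb is higher in the temporal-injected and day 28 saline groups than in the other 3.

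The promoter windows of Slc16a3 and of both lactate dehydrogenase genes are shown because these genes moved in different ways in masseter. They come from RefSeq (GRCm38.p6), run from 250 bases before to 50 bases after the start of the transcript, and are written 5′ to 3′ on the gene's strand. Capitals mark ACGTG, read on both strands (so also CACGT), the core of the element bound by hypoxia-inducible factors and part of the CACGTG box bound by other factors. The windows are chr11:120948817-120949116 on the plus strand for Slc16a3, chr7:46845554-46845853 on the plus strand for Ldha and chr6:142507908-142508207 on the minus strand for Ldhb.
Slc16a3: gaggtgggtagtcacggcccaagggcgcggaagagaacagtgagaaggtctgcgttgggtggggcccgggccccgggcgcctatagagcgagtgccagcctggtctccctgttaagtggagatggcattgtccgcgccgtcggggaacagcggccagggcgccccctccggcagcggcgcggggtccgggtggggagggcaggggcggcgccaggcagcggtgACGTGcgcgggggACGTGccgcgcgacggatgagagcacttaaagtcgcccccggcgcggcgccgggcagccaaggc
Ldha: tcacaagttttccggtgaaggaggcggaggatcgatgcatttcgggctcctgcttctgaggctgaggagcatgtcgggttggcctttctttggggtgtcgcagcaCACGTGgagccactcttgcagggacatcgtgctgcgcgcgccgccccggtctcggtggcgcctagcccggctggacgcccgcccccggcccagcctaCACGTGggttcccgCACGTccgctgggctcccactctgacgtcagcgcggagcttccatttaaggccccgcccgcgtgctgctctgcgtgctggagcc
Ldhb: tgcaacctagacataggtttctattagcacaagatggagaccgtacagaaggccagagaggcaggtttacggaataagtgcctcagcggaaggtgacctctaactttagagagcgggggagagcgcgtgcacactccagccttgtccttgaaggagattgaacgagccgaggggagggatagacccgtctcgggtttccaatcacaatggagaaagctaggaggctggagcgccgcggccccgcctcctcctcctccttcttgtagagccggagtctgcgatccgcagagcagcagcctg
The Slc16a3 window held 2 matches, 27 and 14 bases before the start. The Ldha window held 5 matches over both strands, in 3 capital stretches, because a CACGTG box is read once on each strand; the window of a second Ldha start held none. The Ldhb window held none. Of all 32851 windows, 19.6% held at least 1 match, and 21 of the 49 windows of the members did (42.9%); Bsg and Slc2a4 had no window in the table. A match describes these letters only and says nothing of binding.

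Between the temporal-injected masseter at day 28 and the masseter-injected muscle at day 38, a larger part of the pathway differed: 13 members were lower and 1 was higher in the temporal-injected group, in a comparison that called 5.04% of genes lower and 6.7% higher. The lower members were Gpi1, Pfkm, Pfkp, Aldoa, Tpi1, Gapdh, Pgk1, Pgam2, Eno3 and Ldha of glycolysis, Pygm and Phka1 of glycogen breakdown, and Bsg. The 1 higher member was Ldhb. Day, site of injection and Xist level all differed between these groups and cannot be told apart. Among the members Phka1, Pgk1 and Pfkfb1 lie on the X chromosome. Of 12 macrophage markers 3 and of 7 endothelial markers 3 were lower and none was higher; the macrophage markers summed to 85.4 to 111 CPM in temporal-injected masseter against 115 to 285 CPM at day 38, and the endothelial markers to 552 to 748 CPM against 823 to 1005 CPM. None of these markers was at 0 throughout a group, and their part in the members' differences was not tested.

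The aldolase Aldoa, which splits the sugar diphosphate into trioses, measured 8038, 8395 and 7495 CPM in temporal-injected masseter against 15785, 17247 and 15664 CPM at day 38 (log2 -1.03 ± 0.17, SE; adjusted p = 0.00205). Pgam2 measured 1107, 1035 and 1127 CPM in temporal-injected masseter against 1840, 2177 and 2062 CPM at day 38 (log2 -0.90 ± 0.15, SE; adjusted p = 0.00275). Gpi1 measured 517, 568 and 574 CPM in temporal-injected masseter against 960, 935 and 925 CPM at day 38 (log2 -0.77 ± 0.09, SE; adjusted p = 0.000305). For these 3 genes every temporal-injected library lay well below every day 38 library, and the same was seen for Eno3, at 3002, 2766 and 2820 CPM against 4609, 5056 and 5046 CPM (adjusted p = 0.00712). Gapdh, which oxidises the triose phosphate, measured 3870, 4174 and 4119 CPM in temporal-injected masseter against 7058, 7530 and 7485 CPM at day 38, both paired-end (log2 -0.86 ± 0.14, SE; adjusted p = 0.00215).

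Bsg had the smallest adjusted p, with 390, 388 and 407 CPM in temporal-injected masseter against 606, 628 and 600 CPM at day 38 (log2 -0.63 ± 0.07, SE; adjusted p = 0.00025). Its partner Slc16a3 measured 227, 203 and 253 CPM in temporal-injected masseter against 293, 290 and 311 CPM at day 38 and did not pass. Pygm, which releases glucose phosphate from glycogen, measured 3350, 3293 and 3038 CPM in temporal-injected masseter against 6292, 6045 and 5763 CPM at day 38 (log2 -0.90 ± 0.18, SE; adjusted p = 0.00627). Phka1, the muscle alpha subunit of the kinase that activates phosphorylase, measured 321, 246 and 263 CPM in temporal-injected masseter against 560, 606 and 558 CPM at day 38 (log2 -1.05 ± 0.25, SE; adjusted p = 0.0139). Its beta subunit Phkb (251, 260 and 218 CPM against 352, 364 and 353 CPM) and the muscle gamma subunit Phkg1 (490, 548 and 484 CPM against 576, 558 and 502 CPM) did not pass, and neither did the glycogen synthase Gys1, the branching enzyme Gbe1 or Ugp2, which supplies the sugar nucleotide for glycogen.

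The lactate dehydrogenase subunits moved apart. Ldha measured 1394, 1248 and 1156 CPM in temporal-injected masseter against 2196, 2123 and 1987 CPM at day 38 (log2 -0.73 ± 0.15, SE; adjusted p = 0.00747). Ldhb measured 141, 145 and 178 CPM in temporal-injected masseter against 69.9, 76.7 and 77.2 CPM at day 38 (log2 1.05 ± 0.25, SE; adjusted p = 0.0142). Neither gene's groups overlapped. Ldha made up 88.3%, 86.8% and 83.2% of the summed TPM of the pair in temporal-injected masseter, against 96.0%, 95.5% and 95.1% at day 38. The share in day 28 saline masseter, 78.3%, 87.5%, 88.3% and 72.5%, spanned that of the temporal-injected group, and in day 38 saline masseter it was 96.3%, 95.3%, 96.6% and 96.3%.

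Over all 35 members the median log2 fold change was -0.486, against -0.019 over all genes, and the libraries did not overlap for 25 members and for 37.8% of all genes. On the log2(TPM + 1) scale 22 members lay below 0 and 13 above, while the median of all genes was 0.186. The calls of Pgk1, Pfkp, Tpi1, Pfkm, Ldhb and Phka1 were each lost in at least 1 of the 6 fits without 1 library, Pgk1 in all 6, Pfkp in 4, Tpi1 in 2, Pfkm without temporal-injected library 11, Phka1 without temporal-injected library 12 and Ldhb without day 38 library 5 (adjusted p = 0.0549). When the libraries with gland transcripts were left out (chosen after seeing the data), which kept 2 libraries per group here, 3 members were called, Gpi1 (log2 -0.73) and Bsg (-0.63) lower and Ldhb (1.14) higher, where 1.01% of all genes were lower and 1.15% higher. limma on log2(TPM + 1) called Aldoa and Pgam2 lower and Ldhb higher.

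Against the later day 52 muscles, the temporal-injected masseter differed in 2 members, 1 higher and 1 lower, where 1.34% of all genes were higher and 2.48% lower. Ldhb was again higher, at 141, 145 and 178 CPM in temporal-injected masseter against 67.9, 63.7 and 66.5 CPM at day 52 (log2 1.23 ± 0.25, SE; adjusted p = 0.0142), and the call was lost without day 52 library 10 or temporal-injected library 13. Phkb was lower, at 251, 260 and 218 CPM against 497, 301 and 380 CPM (log2 -0.69 ± 0.18, SE; adjusted p = 0.0475), a call lost in 5 of the 6 fits without 1 library. Slc16a3, whose 3 temporal-injected libraries lay below all day 38 libraries, lay above all day 52 libraries, at 227, 203 and 253 CPM in temporal-injected masseter against 155, 159 and 143 CPM at day 52 (log2 0.58 ± 0.16, SE; adjusted p = 0.0562), without passing. The median over the members was -0.224, against -0.003 over all genes. Both comparisons use the same 3 temporal-injected libraries.

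**Figure D3:**
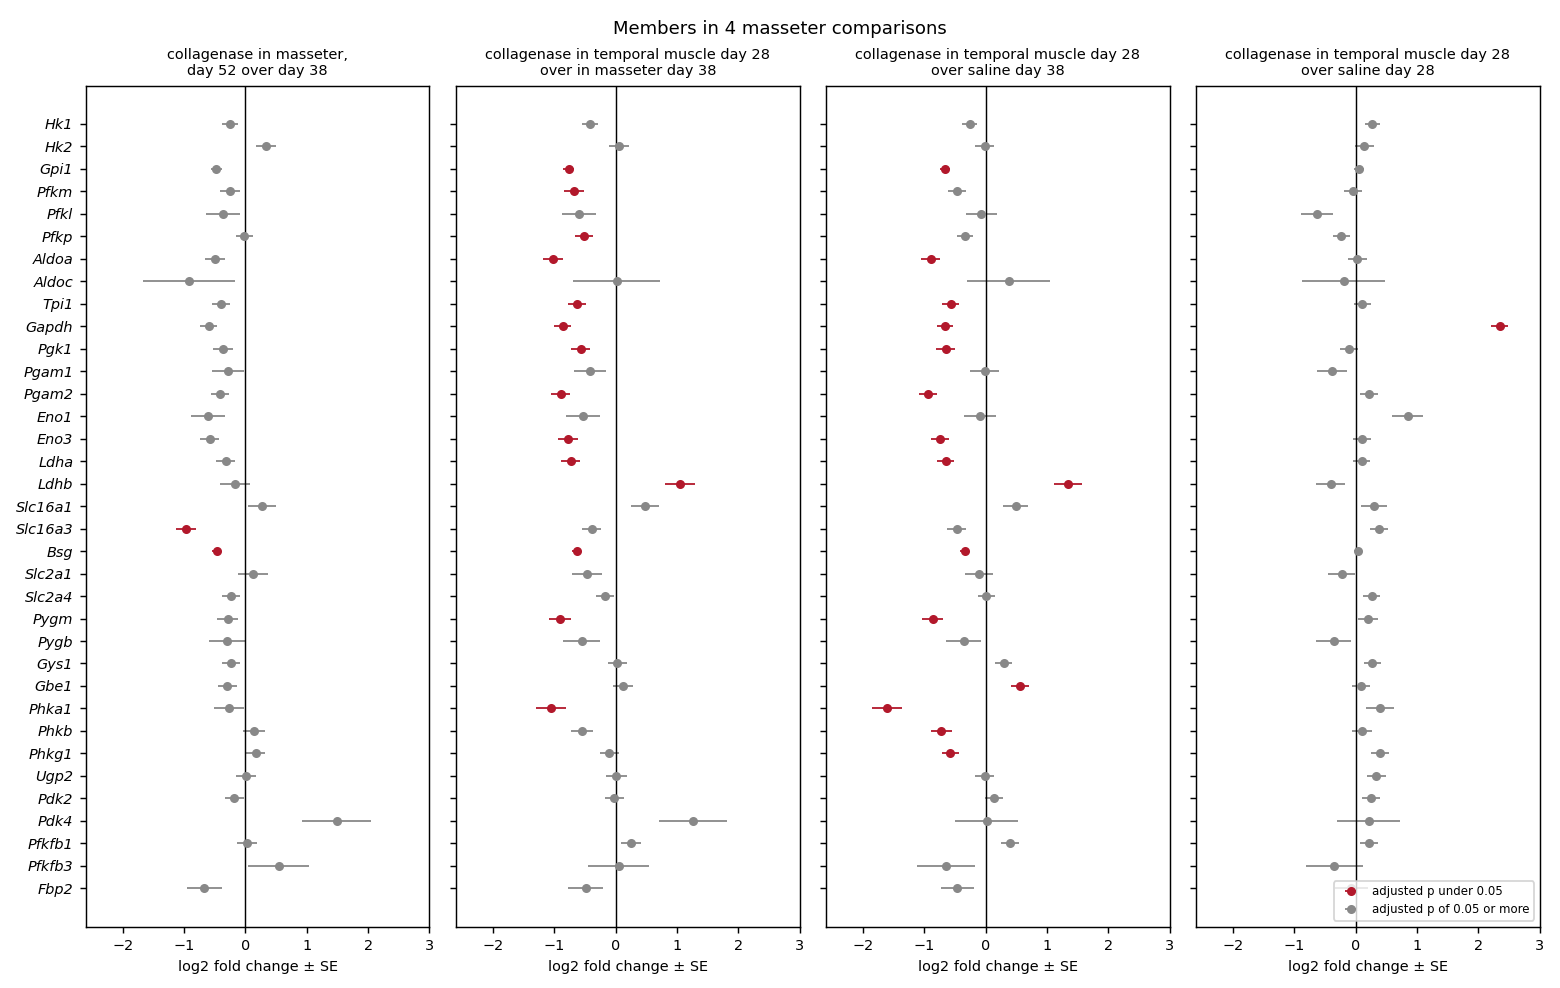
Log2 fold change with its SE (horizontal axis) of each member (down the page) in 4 masseter comparisons, 1 per panel; red points have an edgeR adjusted p under 0.05. The temporal-injected panels against day 38 collagenase and day 38 saline have 14 and 15 red points, nearly all left of 0, while the panel against day 28 saline has 1, Gapdh at 2.34.

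Against saline masseter of the same day and layout, the masseter injected with collagenase differed in no member at day 38, by edgeR. The comparison called 0.334% of all genes higher and 0.532% lower. At an unadjusted p under 0.05 edgeR had 2 members higher and 3 lower, DESeq2 called Bsg higher and Phkg1 lower, and limma called none. Bsg had the smallest adjusted p (0.0596), with 606, 628 and 600 CPM at day 38 after collagenase against 525, 507, 484 and 490 CPM in day 38 saline (log2 0.29 ± 0.07, SE), and the groups did not overlap. Over the members the median was 0.132, against 0.006 over all genes, and the groups did not overlap for 8 of the 35, and for 17.9% of all genes. Of 10 slow or oxidative fibre markers 3 were higher and none lower, and of 8 fast glycolytic markers edgeR called none. The slow or oxidative markers summed to 555 to 1010 CPM after collagenase, against 309 to 463 CPM in day 38 saline. Their part in the members' levels was not tested.

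The day 52 muscles could be set only against the day 38 saline group. Slc16a3 was the 1 member called, lower at 155, 159 and 143 CPM at day 52 against 272, 250, 394 and 348 CPM in day 38 saline (log2 -1.06 ± 0.15, SE; adjusted p = 0.00518), where 0.471% of all genes were called lower and 0.287% higher. All 3 day 52 libraries lay below all 4 saline libraries. The call held in each of the 7 fits without 1 library (adjusted p 0.00512 to 0.0393) and without the gland libraries (log2 -1.17, adjusted p = 0.0322), but not with limma on TPM (-0.89, adjusted p = 0.0947). Bsg, at 417, 448 and 464 CPM at day 52 against 484 to 525 CPM in day 38 saline, did not pass. This comparison and that of day 52 with day 38 share the day 52 libraries. The member median was -0.104 against 0.013 over all genes.

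The temporal-injected masseter was set against both saline groups. Against day 38 saline, which shared its layout but not its day or Xist level, 13 members were lower and 2 higher, where 5.79% of all genes were lower and 5.12% higher. The X-linked Phka1 measured 321, 246 and 263 CPM in temporal-injected masseter against 613, 644, 1094 and 1027 CPM in day 38 saline (log2 -1.61 ± 0.24, SE; adjusted p = 0.00137). Ldhb measured 141, 145 and 178 CPM against 54.1, 73.6, 55.7 and 59.4 CPM (log2 1.35 ± 0.23, SE; adjusted p = 0.00274). In both genes the groups stood apart, and Gpi1 (log2 -0.66, adjusted p = 0.000567), Pgam2 (-0.94, adjusted p = 0.00168), Aldoa (-0.89, adjusted p = 0.0034) and Pygm (-0.86, adjusted p = 0.00651) were also lower. Eno3, Gapdh, Ldha, Bsg, Pgk1, Phkb, Tpi1 and Phkg1 completed the lower calls. Gbe1, the branching enzyme of glycogen, was the other higher member, at 57.6, 58.3 and 67.2 CPM in temporal-injected masseter against 34.7, 34.3, 51.8 and 44.5 CPM in day 38 saline (log2 0.56, adjusted p = 0.0256), a call lost in 5 of 7 fits without 1 library, as was that of Phkg1. The calls of Tpi1 (in 3 of the 7), Ldha (2), Pgk1 (1) and Phkb (1) were also lost in such fits. Without the gland libraries 4 members were called, Gpi1, Pgam2 and Phka1 lower and Ldhb higher, where 1.62% of all genes were lower and 1.09% higher. In the same comparison 9 of 10 neutrophil and marrow markers and 6 of 9 osteoblast markers were higher and none of either list was lower. Of 20 skeletal muscle markers 8 were lower and 2 higher, and of 10 slow or oxidative fibre markers 5 were higher and none lower. Of 8 fast glycolytic fibre markers 3 and of 7 endothelial markers 3 were lower and none was higher. The part of these markers in the members' differences was not tested. The member median was -0.344 against 0.008 over all genes.

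Against day 28 saline, which shared its day and Xist level but not its layout, 1 member was higher and none lower, where 1.17% of all genes were higher and 1.77% lower. That member was Gapdh, at 3870, 4174 and 4119 CPM in temporal-injected masseter against 818, 631, 954 and 791 CPM in day 28 saline (log2 2.34 ± 0.13, SE; adjusted p = 7.12e-08). The next smallest adjusted p was 0.0878, for the enolase Eno1. Aldoa, at 8038, 8395 and 7495 CPM in temporal-injected masseter against 8518, 6388, 9747 and 6672 CPM in day 28 saline, and Pygm, at 3350, 3293 and 3038 CPM against 3089, 2064, 3628 and 2463 CPM, overlapped between these groups. The same held for Ldhb, at 141, 145 and 178 CPM against 257, 119, 159 and 288 CPM. The members had a median of 0.103, against -0.025 over all genes.

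The saline groups themselves differed widely. In day 38 over day 28 saline masseter 17 members were higher and 2 lower, where 11.7% of all genes were higher and 12.9% lower. Ldhb was lower, at 54.1, 73.6, 55.7 and 59.4 CPM in day 38 saline against 257, 119, 159 and 288 CPM in day 28 saline (log2 -1.76 ± 0.22, SE; adjusted p = 0.000106). The X-linked Phka1 was higher, at 613, 644, 1094 and 1027 CPM against 231, 156, 250 and 204 CPM (log2 2.01 ± 0.22, SE; adjusted p = 4.46e-05). No library of either group reached into the other for these 2 genes. The other higher members were Gapdh, Gpi1, Pgam2, Phkg1, Pygm, Aldoa, Slc16a3, Eno3, Bsg, Ldha, Tpi1, Phkb, Hk1, Pgk1, Eno1 and Pfkm, and the other lower member was Gbe1. Leaving out 1 library ended the call of Pfkm in 5 of 8 fits and that of Gbe1 in 4. The median was 0.384 over the members and -0.052 over all genes. Neither group had received collagenase, and day, layout and Xist level all differed between them and cannot be told apart. In the same comparison 7 of 12 macrophage, 6 of 12 fibroblast, 3 of 7 endothelial and 9 of 20 skeletal muscle markers were higher, and 1 skeletal muscle and 7 of 10 slow or oxidative fibre markers lower. The macrophage markers summed to 77.4 to 197 CPM in day 38 saline against 57.9 to 66.9 CPM in day 28 saline, the fibroblast markers to 2402 to 4611 CPM against 768 to 1922 CPM, and the endothelial markers to 819 to 1050 CPM against 576 to 723 CPM. None of these stood at 0 throughout a group, and their part in the members' differences was not tested.

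Gapdh was followed separately because its level went with the read layout. Mouse Gapdh has many near-identical processed pseudogenes, so its counts are uncertain wherever reads were divided between copies. The ratio of Gapdh to Tpi1, the neighbouring triose enzyme, in TPM was 3.24 to 4.46 in all 13 paired-end masseter libraries and 0.726 to 0.812 in the 4 single-end ones. In dura it was 3.30 to 6.42 in the 12 collagenase libraries, all paired-end, against 0.957 to 1.39 in temporal saline and 0.858 to 1.05 in unnamed-site saline, all single-end. An offset for effective length left the masseter difference in place, with a log2 fold change of 2.46 for temporal-injected over day 28 saline. Within the paired-end masseter groups Gapdh was called lower together with Pgk1, Pgam2 and Eno3 in temporal-injected masseter, over day 38 collagenase and over day 38 saline. Between day 38 collagenase and day 38 saline Gapdh was not called. It made up 19.1 to 19.9% of the members' summed TPM in the first group, against 17.7 to 18.7% in the second. No value of Gapdh across layouts is read as an effect of treatment.

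**Figure D4:**
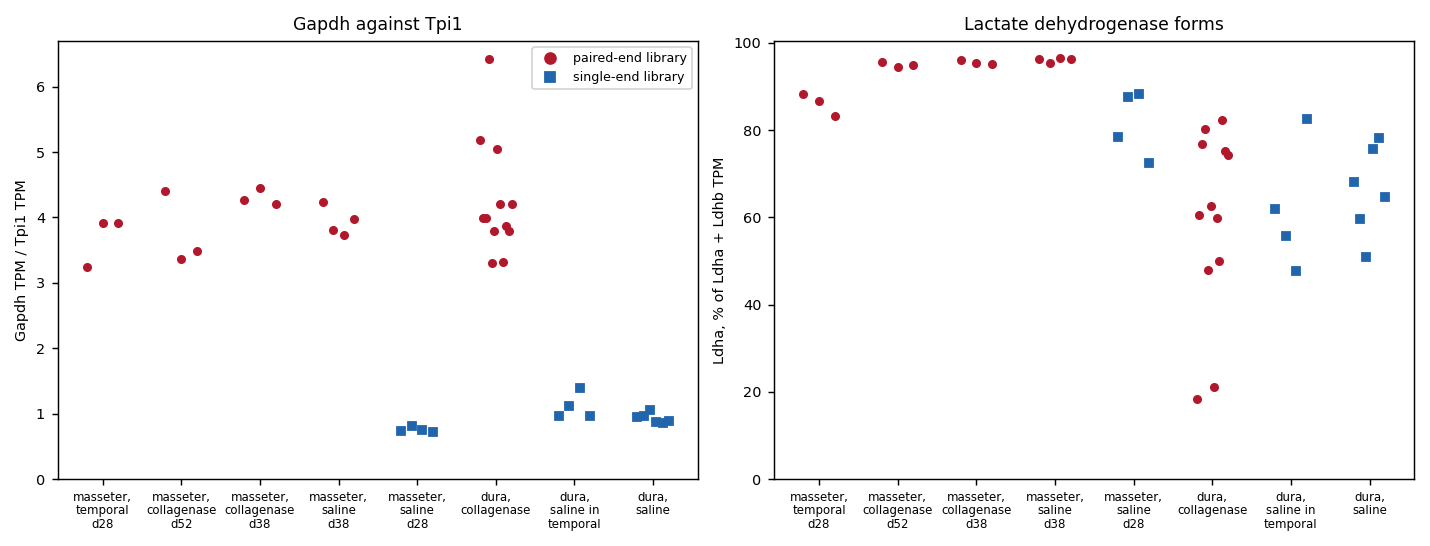
Ratio of Gapdh to Tpi1 in TPM (first panel) and Ldha as a percent of summed Ldha and Ldhb TPM (second panel) in every library of the 8 groups, with the marker shape giving the read layout. The ratio separates the layouts in both tissues, at 3.24 and above in paired-end and 1.39 and below in single-end libraries, and the Ldha share is lowest in masseter in the temporal-injected and day 28 saline groups.

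In the 6 masseter comparisons within the paired-end layout, 18 members were called at least once and 17 in none, where 18.6% of all genes were called at least once. Hk2, the hexokinase of muscle, measured 461 to 830 CPM over the 9 collagenase libraries and 425 to 630 CPM over the 8 saline libraries. Slc2a4, the glucose transporter that insulin brings to the surface, measured 757 to 1024 CPM over the collagenase libraries and 572 to 1018 CPM over the saline libraries. Slc2a1, the transporter of most other cells, Pfkl, Aldoc, Pgam1, Pygb and Hk1 are forms used mainly by other tissues and measured at most 84.5 CPM in any masseter library, and Eno1, the enolase of most tissues, 34.4 to 176 CPM. The spread within groups was large for the regulators: Pfkfb3, which makes the activator of phosphofructokinase, measured 260 to 1001 CPM within the day 38 saline group and 259 to 667 CPM within the day 28 saline group. Pdk2, Pfkfb1, Ugp2, Gys1, Slc16a1 and the gluconeogenic phosphatase Fbp2 of muscle were likewise without a call in these comparisons.

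Genes of the same pathways outside the 35 members were counted from lists. Of 30 tested genes of glycolysis and pyruvate, none was called between day 52 and day 38 by edgeR (3 at an unadjusted p under 0.05, 2 by DESeq2), and 4 were higher and 3 lower in temporal-injected over day 38 masseter. In the latter comparison 6.7% of all genes were higher and 5.04% lower. Pkm, the pyruvate kinase of muscle, averaged 2310 CPM in temporal-injected masseter and 3447 CPM at day 38 (log2 -0.58, adjusted p = 0.0139). Gpd1, which diverts triose to glycerol phosphate, averaged 466 CPM and 946 CPM (log2 -1.02, adjusted p = 0.00607), and Pdk1, a kinase of pyruvate dehydrogenase, averaged 86.8 CPM and 60.7 CPM (log2 0.52, adjusted p = 0.00581). Against day 38 saline 4 of the list were higher and 3 lower, where 5.12% of all genes were higher and 5.79% lower. Against day 28 saline 1 was higher and 2 lower, where 1.17% of all genes were higher and 1.77% lower. Neither day of masseter-injected muscle had a called gene of this list against day 38 saline (3 at day 38 and 10 at day 52 at an unadjusted p under 0.05; 0 and 1 by DESeq2).

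Of 20 further glycogen genes, none was called between day 52 and day 38 (4 at an unadjusted p under 0.05, 3 by DESeq2), and 1 was higher and 2 lower in temporal-injected over day 38 masseter. In the latter comparison 6.7% of all genes were higher and 5.04% lower. Pgm2, a phosphoglucomutase, averaged 680 CPM in temporal-injected masseter and 1194 CPM at day 38 (log2 -0.81). Against day 38 saline 1 was higher and 3 lower, where 5.12% of all genes were higher and 5.79% lower. The lower ones included Ppp1r3c, a targeting subunit of the phosphatase that acts on glycogen enzymes (log2 -1.98). Of 23 regulators of energy metabolism, none was called between the days (9 at an unadjusted p under 0.05, 5 by DESeq2). In temporal-injected over day 38 masseter, with the shares of all genes given above, 5 of the 23 were higher and 1 lower. The higher ones included Ppargc1a, a coactivator of oxidative metabolism (log2 1.02), and Txnip, which restrains glucose uptake (log2 1.03), and the lower one was Prkag3, a subunit of the AMP-activated kinase in fast muscle (log2 -1.24).

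Markers of fibre type also differed between temporal-injected and day 38 masseter, with calls in both directions within the slow or oxidative list and within the fast list. Myh2, the myosin of fast oxidative fibres, averaged 2692 CPM in temporal-injected masseter and 415 CPM at day 38 (log2 2.70), and Myh4, the myosin of the fastest glycolytic fibres, averaged 4229 CPM and 28938 CPM (log2 -2.77). Of the 10 slow or oxidative fibre markers 2 were higher and 2 lower in this comparison, and of the 8 fast glycolytic markers 1 was higher and 3 lower. The comparison called 6.7% of all genes higher and 5.04% lower. The sum of the 10 slow or oxidative markers was 2591 to 3450 CPM in temporal-injected masseter, 421 to 737 CPM at day 52, 555 to 1010 CPM at day 38, 309 to 463 CPM in day 38 saline and 4321 to 9015 CPM in day 28 saline. The sum of the 8 fast markers was 78169 to 94182 CPM in temporal-injected masseter, 95158 to 123835 CPM at day 52, 96989 to 122905 CPM at day 38, 102161 to 126468 CPM in day 38 saline and 64068 to 101034 CPM in day 28 saline. No marker of either list stood at 0 in every library of a masseter group. The 20 skeletal muscle markers summed to 162431 to 181318 CPM in temporal-injected masseter against 187725 to 234111 CPM at day 38. Their part in the members' differences was not tested.

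In dura the members made up a smaller part of all transcripts than in masseter. Together they made up 1.28 ± 0.428% of TPM in collagenase dura (SD, n = 12), 1.04 ± 0.0614% in temporal saline (n = 4) and 0.784 ± 0.0815% in unnamed-site saline (n = 6). Leaving Gapdh out, the same sums averaged 0.986%, 0.952% and 0.733% of TPM. In collagenase dura without libraries 1, 4, 7 and 8, described next, the sum without Gapdh averaged 0.796% of TPM, below that of temporal saline. Before any comparison, 4 collagenase libraries stood apart. Libraries 4, 8 and 7 held muscle transcripts, with Ckm, the creatine kinase of muscle, at 9400, 2651 and 821 CPM, against 12.0 to 49.5 CPM in the other collagenase libraries. In temporal saline Ckm measured 12.5 to 34.0 CPM and in unnamed-site saline 0.0385 to 0.450 CPM. Libraries 1 and 7 held neuronal transcripts, with Gad1, which makes the transmitter GABA, at 1741 and 1831 CPM. The 20 skeletal muscle markers summed to 187 to 76970 CPM in collagenase dura, 196 to 447 CPM in temporal saline and 61.1 to 77.2 CPM in unnamed-site saline, and the 11 neuron and astrocyte markers to 691 to 9285 CPM, 1026 to 1465 CPM and 773 to 934 CPM. No marker of either list was at 0 in every library of a group. The muscle forms followed Ckm: Pgam2 measured 535, 221 and 61.4 CPM in libraries 4, 8 and 7, Eno3 1438, 549 and 176 CPM, and Pygm 1757, 804 and 382 CPM. Aldoc, the aldolase of brain, measured 681 and 561 CPM in libraries 1 and 7, and Ldhb 867 and 708 CPM.

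**Figure D5:**
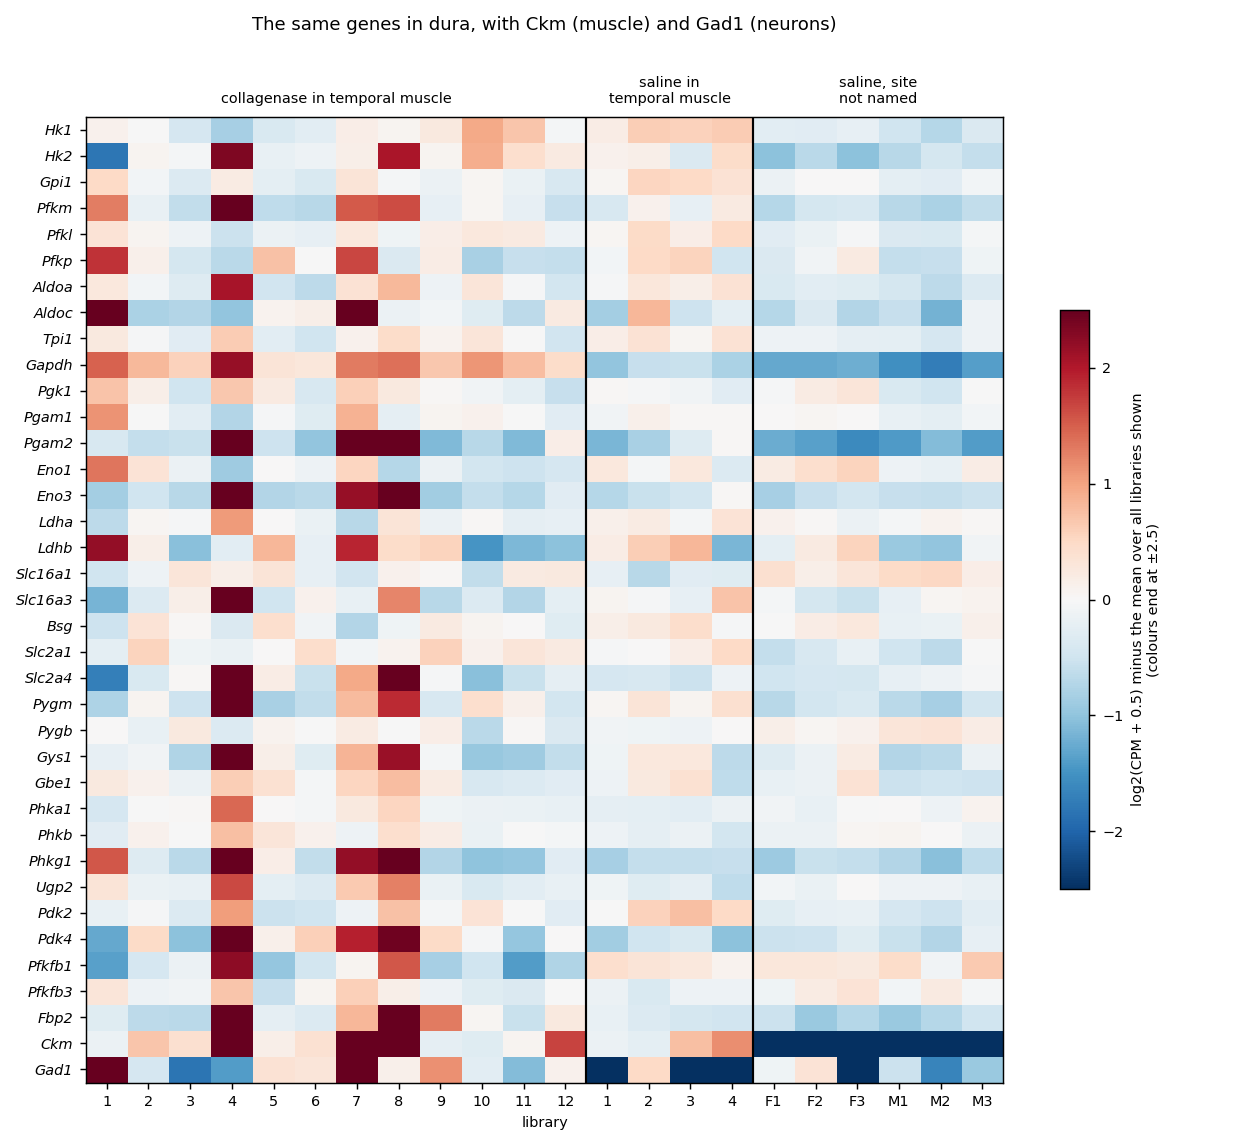
Level of each of the 35 members, with Ckm and Gad1 added as markers of muscle and neurons, in each of the 22 dura libraries (across, collagenase first), as log2(CPM + 0.5) minus the mean of that gene over the libraries; red is above and blue below that mean. Pgam2, Eno3 and Pygm are reddest where Ckm is, in collagenase libraries 4, 8 and 7, and Aldoc where Gad1 is, in libraries 1 and 7. Fbp2 is reddest in libraries 4 and 8, and is higher in library 9 (1.85 CPM) than in library 7 (1.19 CPM).

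Collagenase dura shared site and day with temporal saline, but not layout or, in libraries 7 to 12, Xist level. Xist measured 531 to 622 CPM in those libraries, 0.268 to 0.841 CPM in libraries 1 to 6 and 0.0888 to 0.362 CPM in temporal saline. In unnamed-site saline it measured 584 to 726 CPM in the F libraries and 1.15 to 3.29 CPM in the M libraries. Against temporal saline 1 member was higher and 1 lower after collagenase, where 13.3% of all genes were higher and 11.1% lower. The higher one was Gapdh, whose lowest, median and highest values were 993, 1414 and 3699 CPM in collagenase dura, against 414, 549, 555 and 473 CPM in temporal saline (log2 1.77 ± 0.29, SE; adjusted p = 0.000161). The lower one was Gpi1 (log2 -0.42 ± 0.14, SE; adjusted p = 0.0336), a call lost without saline library 2, 3 or 4. In this comparison 7 of 10 neutrophil and marrow markers, 2 of 6 erythroid markers and 5 of 6 tested gland markers were lower and none higher. The neutrophil and marrow markers summed to 95.6 to 1698 CPM in collagenase dura against 900 to 2889 CPM in temporal saline, the erythroid markers to 194 to 1418 CPM against 1085 to 1934 CPM, and the gland markers to 59.7 to 104 CPM against 146 to 210 CPM, with the gland gene Smr2 at 0 in every library of both groups and Prol1 at 0 throughout collagenase dura. Their part in the members' differences was not tested. Without collagenase libraries 1, 4, 7 and 8 (chosen after seeing the data) the counts were 4 higher and 6 lower, where 18.3% of all genes were higher and 15.9% lower: Gapdh (log2 1.36), Phkb (0.31), Pdk4 (0.77) and Slc16a1 (0.41) higher, and Gpi1 (-0.58), Pfkfb1 (-1.12), Pdk2 (-0.64), Ldha (-0.24), Tpi1 (-0.36) and Aldoa (-0.39) lower. The member median was 0.262 against 0.056 over all genes, and the groups did not overlap for 1 member and for 9.64% of all genes.

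Against unnamed-site saline 11 members were higher and 1 lower, where 21.4% of all genes were higher and 15.3% lower. Besides Gapdh (log2 2.45, adjusted p = 5.90e-07), the higher members were the muscle forms Pgam2, Eno3, Pfkm, Phkg1, Pygm and Fbp2, the brain aldolase Aldoc, and Slc2a1, Hk2 and Pdk4; Slc16a1 was lower (log2 -0.36). Of 18 fits without 1 library, the call of Pfkm was lost in 2, Eno3 in 7, Aldoc and Pdk4 in 8 each, and Pygm and Slc16a1 in 9 each. Without libraries 1, 4, 7 and 8 the counts were 5 higher and 2 lower, where 21.2% of all genes were higher and 18.8% lower. Hk2 (log2 0.97, adjusted p = 0.000322), Slc2a1 (0.66, adjusted p = 0.00073), Pgam2 (0.92, adjusted p = 0.00948), Hk1 (0.55) and Gapdh (2.04) were then higher, Pfkfb1 (-1.17, adjusted p = 0.000367) and Pfkfb3 (-0.28) were lower, and Eno3 stood at -0.03 (adjusted p = 0.85), against 2.96 with all libraries. Over temporal saline in the same setting Hk2, Slc2a1, Pgam2 and Hk1 were not called. The kept collagenase libraries averaged 27.1, 214, 2.54 and 404 CPM of these genes, in that order. In temporal saline, without collagenase, they measured 18.1 to 32.4, 173 to 248, 1.61 to 4.23 and 405 to 553 CPM. Both comparisons cross the read layout. With all libraries, 20 of 20 skeletal muscle markers and 8 of 11 neuron and astrocyte markers were higher over unnamed-site saline, and none of either list was lower. Of 12 macrophage markers 5 and of 9 osteoblast markers 4 were lower, and none was higher. The libraries kept without 1, 4, 7 and 8 still held Ckm at 12.0 to 49.5 CPM, against 0.0385 to 0.450 CPM in unnamed-site saline. The part of muscle transcripts and of the other markers in the members' differences was not tested. The member median over all libraries was 0.474 against 0.059 over all genes. Both collagenase comparisons share the 12 collagenase libraries.

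The saline groups of dura were both single-end but not alike in Xist level. In temporal over unnamed-site saline 2 members were higher and 1 lower, where 2.01% of all genes were higher and 2.24% lower. The hexokinase Hk1 (log2 0.89 ± 0.24, SE; adjusted p = 0.042) and Pfkl, the phosphofructokinase of liver and other tissues (0.52 ± 0.14, SE; adjusted p = 0.0469), were higher, and Slc16a1 (-0.71 ± 0.18, SE; adjusted p = 0.0297) was lower. Leaving out 1 library ended the calls of Hk1 and Pfkl in 9 of 10 fits each and that of Slc16a1 in 6. The member median was 0.262 against 0.008 over all genes. Of the other lists in dura, the 33 tested genes of glycolysis and pyruvate had 4 higher and 4 lower in collagenase dura over temporal saline and 12 higher and 5 lower over unnamed-site saline. The 19 glycogen genes had 2 higher and 5 lower, and 6 higher and 4 lower, in the same comparisons. The 21 energy regulators had 7 and 11 higher and none lower. Among them Hif1a, a factor of the hypoxia response, was higher by a log2 of 0.47 (adjusted p = 0.0259) and 0.66 (adjusted p = 0.000648). In collagenase dura over temporal saline, 13.3% of all genes were higher and 11.1% lower. Over unnamed-site saline, 21.4% of all genes were higher and 15.3% lower. Both of these comparisons cross the read layout and include the collagenase libraries with muscle or neuronal transcripts. The part of layout and of these transcripts in the list counts and in Hif1a was not tested.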

How the data were processed

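Messenger RNA was selected with oligo-dT and libraries kept strand, per the labels' protocols. The submitters' processing notes name bcl2fastq, Trim Galore, RSEM and the mouse build mm10, without versions; aligner, annotation and strandedness of counting were not given in the sources used here. Expected counts as deposited by the authors are, per the file headers, RSEM estimates for each gene, not scaled between libraries, and the deposited TPM values are scaled within each library. The deposited lengths and effective lengths gave the read layout: among genes above 50 expected counts, the median of their difference lay between 49.49 and 49.55 bases in 14 libraries (single-end) and between 212.5 and 236.99 in 25 (paired-end).

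Expected counts were rounded. One fit per tissue held all groups (edgeR 4.0.16, R 4.3.3; filterByExpr with TMM scaling, quasi-likelihood test, Benjamini-Hochberg over all genes tested, called at an adjusted p under 0.05), testing 14652 genes in masseter and 16363 in dura. All 35 members passed the filter in both tissues. Alternatives used DESeq2 1.42.0, limma 3.58.1 on log2(TPM + 1), no filter, only the groups compared, an offset for effective length, a replicate block, and leaving out libraries. The fit was tested on simulated data. All 35 members could be named. Values in every library were planned for Gapdh and for the called members with the smallest p in each masseter comparison within a layout. Not every called member therefore has its library values given. Of the 3 pathway lists and the fibre and cell markers, up to 4 genes per comparison could be named. The members and lists were chosen with earlier results of these data known. A gene of the glycogen list is not reported here by name.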

Additional observations from a re-analysis of the deposited data

Results flagged for a closer look

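In 7 of the 140 sets of 1 member in 1 group of 4 to 10 libraries, 1 library stood far from the others relative to the range; chance gives about 1 in 20. In day 38 saline masseter, Pdk2 was at 630 CPM in library 2, against 479 to 490 CPM in the other 3; this library also held gland transcripts. In day 28 saline masseter, library 2 had 47.0 CPM of Gbe1, against 60.1 to 61.5 CPM, and 21.9 CPM of Fbp2, against 47.1 to 51.4 CPM. In dura after saline in the temporal muscle, library 1 had 405 CPM of Hk1, against 537 to 553 CPM, and 2.90 CPM of Phkg1, against 3.49 to 3.58 CPM, while library 2 had 20.1 CPM of Pfkfb3, against 23.5 to 23.9 CPM. In dura after saline at the unnamed site, library F3 had 24.3 CPM of Gbe1, against 12.8 to 16.9 CPM. The 2 members that differed between day 52 and day 38 after collagenase in the masseter were Slc16a3 (log2 -0.97) and Bsg (log2 -0.47), where the test of the difference between the days is the one given above; both calls were lost without any 1 library.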

How the results depend on the processing

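Counts below are genes called, members first and all genes second where both are given. With DESeq2 the counts were 6 and 838 for day 52 over day 38, 9 and 1192 for temporal-injected over day 52, 2 and 721 for day 38 over its saline group, 6 and 612 for day 52 over day 38 saline, and 2 and 1058 for temporal-injected over day 28 saline. In dura DESeq2 gave 7 members for collagenase over saline in the temporal muscle, and 6 and 1585 between the saline groups. With limma on log2(TPM + 1) they were 1 and 685 for day 52 over day 38, 3 members for temporal-injected over day 38, 1 and 231 over day 52, 7 and 546 over day 38 saline and 185 genes over day 28 saline. The same setting gave 20 genes for day 38 over its saline group, 0 and 19 for day 52 over day 38 saline, 1836 genes between the masseter saline groups, and 3 and 3893 for dura collagenase over saline at the unnamed site. Without a filter on low counts they were 0 and 0 for day 52 over day 38, 1 member for temporal-injected over day 52 and 73 genes for day 38 over its saline group. With only the groups compared in the fit they were 0 and 0 for day 52 over day 38, 14 genes for day 38 over its saline group, 59 for day 52 over day 38 saline, 93 for temporal-injected over day 28 saline and 2035 between the masseter saline groups. In dura that setting gave 1 and 7 members for collagenase over the saline groups in the temporal muscle and at the unnamed site, and 15 and 4659 between these saline groups.

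Without the masseter libraries with gland transcripts (chosen after seeing the data) they were 0 and 0 for day 52 over day 38, 3 and 319 for temporal-injected over day 38, 1 and 78 over day 52, 4 and 400 over day 38 saline, 64 genes over day 28 saline, 9 genes for day 38 over its saline group and 17 for day 52 over day 38 saline. Without dura collagenase libraries 4, 7 and 8, members called were 6 over saline in the temporal muscle and 7 over saline at the unnamed site; without 1 and 7 they were 7 over the first; without 1, 4, 7 and 8 (chosen after seeing the data) they were 10 and 7. Reversed were Gapdh for day 38 over its saline group with limma (-0.0047) and Eno3 for dura collagenase over saline at the unnamed site, at -0.0546 without libraries 4, 7 and 8 and -0.03 without 1, 4, 7 and 8. With the replicate block, which treats equal library numbers as pairs, counts were 8 and 830 between the masseter saline groups and 0 and 13 for dura collagenase over saline in the temporal muscle (4 libraries each). The numbers did not pair the libraries: deviations of equal numbers correlated at -0.164 to 0.211 in masseter and -0.185 to 0.193 in dura.

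Leaving out 1 library at a time gave, for members and all genes, 0 to 0 and 0 to 2 for day 52 over day 38, 10 to 13 and 786 to 1293 for temporal-injected over day 38, 0 to 4 and 172 to 608 over day 52, 10 to 15 and 662 to 1272 over day 38 saline, and 1 to 2 and 119 to 633 over day 28 saline. For day 38 over its saline group it gave 0 to 1 and 11 to 660, for day 52 over day 38 saline 1 to 1 and 33 to 93, and between the masseter saline groups 18 to 20 and 2280 to 3732. In dura it gave 1 to 5 and 2662 to 4323 over saline in the temporal muscle, 6 to 14 and 4597 to 6393 over saline at the unnamed site, and 0 to 5 and 212 to 1056 between the saline groups. Of the members' calls refitted, 1 of 71 was lost with DESeq2, 38 of 71 with limma, 5 of 71 without a filter, 12 of 71 with only the groups compared, 29 of 54 without gland libraries and 130 of 657 without 1 library. The cause of these changes was not tested. Read layout is tied to group in every dura comparison with collagenase and in every masseter comparison with day 28 saline, groups of 3 or 4 libraries limit the precision, and RSEM's division of reads leaves members with pseudogenes (Gapdh, Pgk1, Pgam1, Eno1, Ldha, Aldoa) uncertain.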

Other observations

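Pdk4 and Pfkfb3 varied widely between libraries of a group. Pdk4 measured 803, 273 and 637 CPM in the temporal-injected masseters and 1049, 362, 343 and 506 CPM in the day 38 saline masseters, and Pfkfb3, which makes an activator of glycolysis, 309, 471 and 333 CPM and 1001, 335, 728 and 260 CPM. Day 38 saline library 1 held the highest value of both genes within its group.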
